A study of Sus scrofa with 35 samples.

Results

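The phagocyte NADPH oxidase was followed through the messenger RNA of 6 genes, CYBB, CYBA, NCF1, NCF4, RAC1 and RAC2, in whole blood of pigs. Members were the array probes that the scanner files name with 1 of these symbols. There were 7 such probes among the 60305 distinct probes of the array, and 6 of them were in the table of normalized log2 values, which holds 39072 probes. They stood for 5 of the 6 genes, because no probe was named CYBB. That gene was measured by 2 further probes named GP91-PHOX, an older name of the protein that the RefSeq gene table pairs with CYBB. Counts below are over the 6 named probes, with the 2 CYBB probes given beside them, 8 probes in all.

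The oxidase moves electrons from NADPH across the membrane of neutrophils, monocytes and macrophages onto oxygen, and the superoxide formed is the source of the respiratory burst. CYBB encodes gp91phox and CYBA encodes p22phox, which together form the flavocytochrome b558 of the membrane. At rest the cytosolic subunits p47phox (NCF1) and p40phox (NCF4) lie apart from it. On activation they move to the membrane with a Rac GTPase, RAC2 in neutrophils and RAC1 in monocytes and most other cells, and the complex starts to work.

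Blood was taken from 35 castrated male growing pigs, 1 array for each pig. Pigs were Creole (CR), Large White (LW) or their cross (F1). Thermoneutral (TN) pigs were kept at 24 °C and heat stress (HS) pigs were exposed to a higher temperature for up to 5 d, given as 30 °C in the sample labels and as 32 °C in the protocol. Each of the 6 groups held 6 pigs, except CR TN with 5. No genetic modification was involved, and age is not part of the labels. In the study's protocol the TN pigs were killed first and the HS pigs once the room had been heated, so climate and slaughter day cannot be told apart. Littermates were spread over pens. Pen and litter were not used here, and p-values therefore treat pigs as independent.

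All 8 probes in the table were well above background on 35 of 35 arrays, with 0 flagged and 0 saturated spots. The remaining NCF1 probe, O2462, was annotated to a mouse transcript, was well above background on 5 of 35 arrays, and it was not in the table. A probe of identical sequence was in the table, was well above background on 10 of 35 arrays, and was not used for NCF1. Arrays differed in brightness. Between 55.2% and 68.0% of all probes of an array were well above background. The mean 75th percentile of the processed intensity, before normalization, was 149.9 ± 28.3 (SD, n = 6) for F1 TN and between 202 and 238 for the other groups.

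The probes that the results turn on are printed 5′ to 3′, because 2 of the CYBA probes read opposite strands and because repeat probes give a check of the same transcript. The probes of CYBB A_72_P574634, NCF1 and NCF4 are given whole at 60 bases, and the others by 30 bases. Capitals mark bases of a stretch that the probe shares with its repeat probe, 56 bases for CYBA and 57 bases for CYBB, or the complement of that stretch. The NCF4 probe is left in lower case, although a second probe shares all of its 60 bases.
CYBB probe A_72_P147021, bases 1 to 30: atgTGGGTCGTACTGCCAAATGCCCAGATA
CYBB repeat probe, bases 1 to 30: TGGGTCGTACTGCCAAATGCCCAGATAATG
CYBB probe A_72_P574634: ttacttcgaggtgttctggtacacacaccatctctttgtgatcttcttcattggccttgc
CYBA probe A_72_P035581, bases 1 to 30: ctgtCATCTTTCTAGGGGGCCTTGGGGTCT
CYBA repeat probe, bases 1 to 30: CATCTTTCTAGGGGGCCTTGGGGTCTTGGT
CYBA opposite-strand probe A_72_P306223, bases 31 to 60: AGACCCCAAGGCCCCCTAGAAAGATGacag
NCF1 probe A_72_P146491: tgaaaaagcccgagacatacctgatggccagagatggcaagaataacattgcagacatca
NCF4 probe O9600: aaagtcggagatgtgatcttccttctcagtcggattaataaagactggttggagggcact
RAC1 probe O2641, bases 1 to 30: ggcaagaatacgagcttggaccttccaacc
RAC2 probe O11885, bases 1 to 30: ccatctcttgtctttctgctccactcacag

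Over their whole length of 60 bases, the CYBA probes A_72_P035581 and A_72_P306223 were exact reverse complements of each other. The first was annotated to the CYBA mRNA and the second to a 3′ expressed sequence tag, and the first was taken as the sense probe from that annotation alone. The RAC1, RAC2 and NCF4 probes carry human accessions in the files, and the other member probes in the table carry pig accessions. Among the other probes of different members, the longest shared run was 10 bases. Positions are not given, because the files leave these probes unmapped and no genome sequence was at hand. In the RefSeq gene table (Sscrofa11.1), RAC2 and NCF4 are on the same chromosome with 12 annotated genes between them. Levels of different probes are not comparable with each other, since each probe binds with its own strength.

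For the comparison of HS with TN, an additive model of breed and climate was fitted with limma to all 35 pigs, and p-values were adjusted over the 39072 probes. Of the 6 named probes, 2 rose under HS, CYBA A_72_P035581 and NCF4, and 0 fell. Both CYBB probes rose as well. Among all probes of the table, 34.8% of the probes passed the threshold of 0.05 (20.1% higher, 14.7% lower), and the share among the named probes was close to that, so the count does not set the members apart. The paper's own model, which also held pen, slaughter day, sire and dam, called far fewer blood probes at this threshold. These calls are therefore not those of the study. Whole blood is a mixture of cells, and fewer cells of a type cannot be told apart from less RNA per cell.

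**Figure D1:**
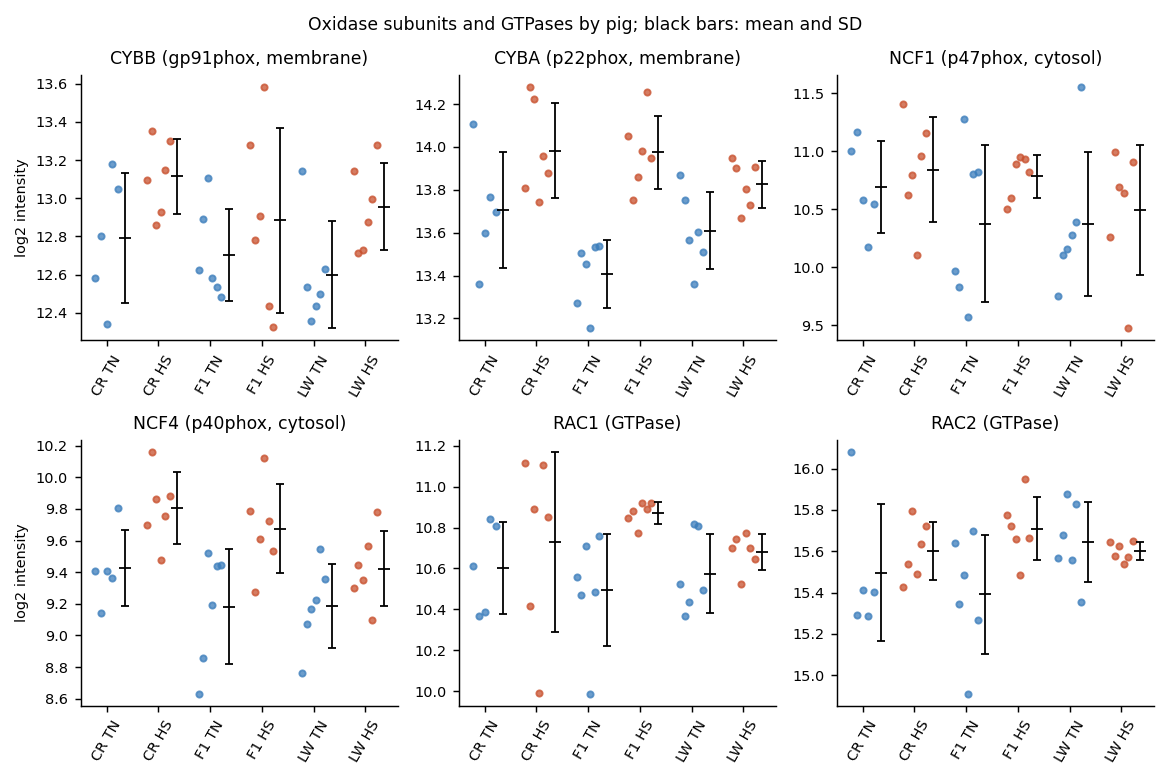
Normalized log2 intensity (vertical axes) of the brightest probe of each gene in the 6 groups (horizontal axes), with 1 point per pig, TN in blue and HS in red, and the group mean with its SD in black. All 6 F1 HS pigs lay above the 6 F1 TN pigs for CYBA and RAC1, whereas the groups overlapped in every breed for CYBB, NCF1, NCF4 and RAC2.

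Of the membrane subunits, CYBB, the catalytic chain that carries the haem and FAD groups, was higher under HS. With its brightest probe, A_72_P147021, the log2 values of the CR TN pigs were 12.34, 12.58, 12.80, 13.05 and 13.18. CR HS pigs ranged from 12.86 to 13.35 (median 13.12). F1 TN pigs ranged from 12.48 to 13.10 (12.60) and F1 HS pigs from 12.32 to 13.59 (12.84). The CR groups overlapped, and the F1 HS group was the widest of all, with 2 pigs above and 2 pigs below every F1 TN pig. LW TN pigs ranged from 12.35 to 13.14 (12.52) and LW HS pigs from 12.71 to 13.28 (12.94). In total 16 of 18 HS pigs were above the TN mean of their breed. Counts of this kind, here and below, are given without their share over all probes and do not set the members apart. HS minus TN was 0.29 ± 0.10 (log2, SE), 1.22-fold, with an adjusted p of 0.0268. The repeat probe of CYBB gave 0.30 (adjusted p = 0.0239). The 2 repeat probes correlated with r = 0.98 over the 35 arrays, and the SD of their difference was 0.07.

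The other CYBB probe, A_72_P574634, showed a higher value under HS in 17 of 18 pigs against the TN mean of their breed. CR TN pigs had log2 values of 7.79, 7.79, 7.80, 8.18 and 8.35, and CR HS pigs ranged from 8.41 to 8.98 (median 8.67). The CR groups did not overlap, which was the case with HS above TN for 0.417% of all probes in CR pigs. Among F1 pigs, values ranged from 7.43 to 8.52 (8.08) under TN and from 8.02 to 9.04 (8.44) under HS. Among LW pigs, they ranged from 7.76 to 8.47 (7.85) under TN and from 8.12 to 8.63 (8.34) under HS. The groups of F1 and LW pigs overlapped. The HS minus TN difference was 0.51 ± 0.10 (SE), 1.42-fold, with an adjusted p of 0.00159.

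CYBA, the p22phox partner that stabilizes gp91phox and holds the docking site of p47phox, was higher under HS on its sense probe. CR TN pigs had log2 values of 13.36, 13.60, 13.70, 13.77 and 14.11, and CR HS pigs ranged from 13.74 to 14.28 (median 13.92). F1 TN pigs ranged from 13.15 to 13.54 (13.48) and F1 HS pigs from 13.75 to 14.25 (13.96). The F1 groups did not overlap, as for 3.59% of all probes with HS above TN in F1 pigs. LW TN pigs ranged from 13.36 to 13.87 (13.58) and LW HS pigs from 13.67 to 13.95 (13.85), with an overlap. All 18 HS pigs were above the TN mean of their breed. HS minus TN was 0.35 ± 0.07 (SE), 1.28-fold, with an adjusted p of 0.00159, and the repeat probe gave 0.34 (adjusted p = 0.00168).

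The probe on the opposite strand of CYBA did not follow the sense probe. Its log2 values were 6.96, 7.27, 7.35, 7.78 and 7.86 in CR TN pigs, and ranged from 6.94 to 7.81 (median 7.39) in CR HS pigs. In F1 pigs the TN values ranged from 7.69 to 8.14 (7.96) and the HS values from 6.82 to 7.82 (7.42), with 5 of 6 F1 HS pigs below every F1 TN pig. In LW pigs the TN values ranged from 6.97 to 8.10 (7.48) and the HS values from 7.22 to 7.94 (7.59). The difference between HS and TN was -0.21 ± 0.12 (SE, adjusted p = 0.149), with a 95% confidence interval (CI) of -0.45 to 0.02. It passed the threshold with array weights (-0.29, adjusted p = 0.0292).

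After the values were seen, the difference between the 2 complementary CYBA probes was compared within pigs. The sense probe changed more than the opposite-strand probe by 0.57 (log2) between HS and TN, with an adjusted p of 0.00433 over 4 tests (permutation of climate within breeds, 100000 resamples, two-sided). In F1 pigs the difference was 1.13 (exact permutation test, adjusted p = 0.00433, n = 12). It was 0.36 in CR pigs (exact permutation test, adjusted p = 0.433, n = 11) and 0.19 in LW pigs (exact permutation test, adjusted p = 0.439, n = 12). The 2 probes had r = -0.50 across the 35 pigs, whereas the sense probe and its repeat had r = 0.95. Since the gene mean of CYBA averages both strands, its HS minus TN difference was 0.07 (adjusted p = 0.353 over genes). This mean enters below only in the correlations and in the comparison with other genes, and there it is not a level of the sense transcript.

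**Figure D2:**
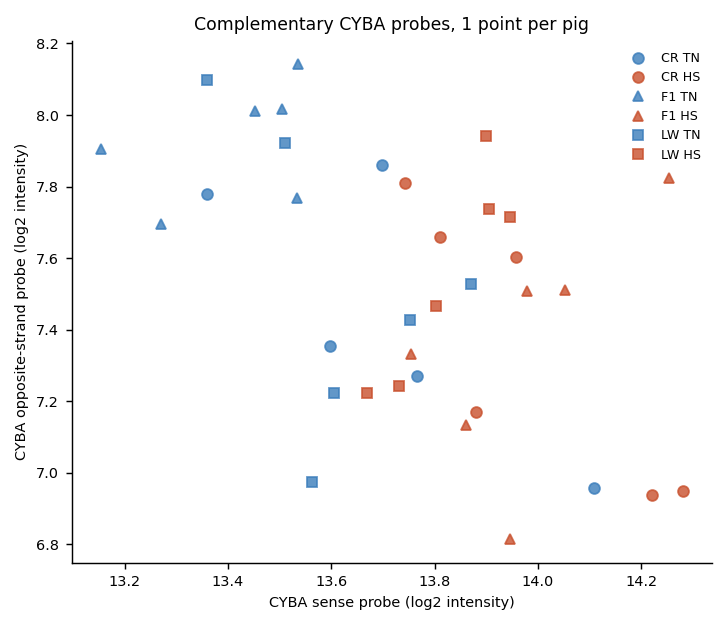
Log2 intensity of the CYBA sense probe (horizontal axis) against the probe of the opposite strand (vertical axis), with 1 point per pig, TN in blue and HS in red, and breeds by symbol. F1 TN pigs lie at the upper left, with sense values up to 13.54 and opposite-strand values from 7.69. CR TN replicate 2 and LW TN replicates 4 and 6 lie within the same limits.

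Of the cytosolic subunits, NCF4, the p40phox protein that binds phosphatidylinositol 3-phosphate on phagosomes, was higher under HS. CR TN pigs had log2 values of 9.14, 9.36, 9.41, 9.41 and 9.81, and CR HS pigs ranged from 9.48 to 10.16 (median 9.81). F1 TN pigs ranged from 8.63 to 9.52 (9.32) and F1 HS pigs from 9.28 to 10.12 (9.67). LW TN pigs ranged from 8.76 to 9.55 (9.19) and LW HS pigs from 9.10 to 9.78 (9.40). The groups overlapped in each breed, and 17 of 18 HS pigs were above the TN mean of their breed. HS minus TN was 0.37 ± 0.09 (SE), 1.29-fold, with an adjusted p of 0.00352. A second probe of identical 60 bases gave 0.38 (adjusted p = 0.00289), with r = 0.97 between the 2 probes.

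NCF1, the p47phox organizer whose phosphorylation starts assembly, had the widest spread between pigs among the members. CR TN pigs had log2 values of 10.17, 10.55, 10.58, 11.00 and 11.16, and CR HS pigs ranged from 10.11 to 11.41 (median 10.88). Values of F1 TN pigs ranged from 9.57 to 11.28 (10.38) and those of F1 HS pigs from 10.50 to 10.95 (10.86). Values of LW TN pigs ranged from 9.75 to 11.56 (10.21) and those of LW HS pigs from 9.47 to 11.00 (10.67). All groups of a breed overlapped. The HS minus TN difference was 0.23 ± 0.16 (SE, adjusted p = 0.270), with a 95% CI of -0.10 to 0.56. Its pooled SD within groups was 0.51, against 0.19 for CYBA and 0.21 for RAC2.

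The Rac GTPases, which join the complex in their GTP form, did not pass the threshold in the additive model. RAC1 values of CR TN pigs were 10.37, 10.39, 10.61, 10.81 and 10.84, and those of CR HS pigs ranged from 9.99 to 11.12 (median 10.87). F1 TN pigs ranged from 9.99 to 10.76 (10.52) and F1 HS pigs from 10.78 to 10.92 (10.89), without overlap by a narrow margin, as for 3.59% of all probes with HS above TN in F1 pigs. LW TN pigs ranged from 10.37 to 10.82 (10.51) and LW HS pigs from 10.52 to 10.77 (10.70), within the range of the TN pigs. HS minus TN for RAC1 was 0.21 ± 0.08 (SE, adjusted p = 0.0553), with a 95% CI of 0.03 to 0.38. RAC1 was close to the threshold, as it passed with scaling to the 75th percentile (0.25, adjusted p = 0.0461), with slide as a block (0.21, adjusted p = 0.0473) and over the 8812 genes in place of probes (adjusted p = 0.0473). It also passed without any 1 of 8 pigs, CR HS replicates 2 and 4, CR TN replicates 4 and 5, LW HS replicate 3, LW TN replicates 4 and 5 or F1 TN replicate 6, with differences of 0.22 to 0.25 and adjusted p-values of 0.00769 to 0.0486.

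RAC2, the form restricted to blood cells, had the smallest difference in size. CR TN pigs had log2 values of 15.29, 15.29, 15.40, 15.41 and 16.08, and CR HS pigs ranged from 15.43 to 15.79 (median 15.59). In F1, TN pigs ranged from 14.91 to 15.70 (15.41) and F1 HS pigs from 15.48 to 15.95 (15.69). In LW, TN pigs ranged from 15.35 to 15.88 (15.62) and LW HS pigs from 15.54 to 15.65 (15.60). The groups overlapped in each breed, and 12 of 18 HS pigs were above the TN mean of their breed. HS minus TN was 0.13 ± 0.08 (SE, adjusted p = 0.182), with a 95% CI of -0.03 to 0.28. Without CR TN replicate 1, the highest of all pigs, it was 0.17 with an adjusted p of 0.0471.

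Arrays were hybridized on 5 slides. Within each of slides 1 to 4, HS minus TN was positive for CYBA (0.28 to 0.47), NCF4 (0.19 to 0.63), NCF1 (0.21 to 0.63) and both CYBB probes (0.20 to 0.39 and 0.25 to 0.77). Values within slides were -0.04 to 0.39 for RAC1 and -0.03 to 0.25 for RAC2. They were -0.32 to 0.06 for the opposite-strand CYBA probe. Slide 5 held 4 arrays, on which breed and climate could not be separated.

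The order of the 6 group means was examined for the brightest probe of each gene. F1 TN was the lowest group for CYBA, NCF4, RAC1 and RAC2, and LW TN for CYBB and NCF1. The F1 TN arrays were also the dimmest before normalization (mean 75th percentile 149.9, against 202 to 238), and the part of brightness in this order was not tested. CR HS was the highest group for CYBA, CYBB, NCF1 and NCF4, and F1 HS for RAC1 and RAC2. The whole range of group means was between 0.32 for RAC2 and 0.62 for NCF4. Neighbours in that order were closer than the pooled SD within groups in all 5 steps for 5 of the genes, and in 4 of 5 steps for CYBA, where the largest step was 0.20 against an SD of 0.19.

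Within F1 pigs, 5 of the 6 named probes passed the threshold, 4 higher and 1 lower under HS, whereas 38.7% of all probes did (20.8% higher, 17.9% lower). The complementary CYBA probes make up 2 of these 5. CYBA rose by 0.57 ± 0.11 (SE, 1.48-fold, adjusted p = 0.00051), NCF4 by 0.49 ± 0.16 (1.41-fold, adjusted p = 0.0142), RAC1 by 0.38 ± 0.14 (1.30-fold, adjusted p = 0.0370) and RAC2 by 0.32 ± 0.12 (1.25-fold, adjusted p = 0.0417). The opposite-strand CYBA probe fell by 0.57 on the log2 scale (SE 0.19, adjusted p = 0.0198). NCF1 did not pass (0.41 ± 0.28, adjusted p = 0.251, 95% CI -0.17 to 0.98). Of the CYBB probes, A_72_P574634 passed (0.46 ± 0.17, adjusted p = 0.0323) and A_72_P147021 did not (0.18 ± 0.17, adjusted p = 0.411). The median of all probes in F1 pigs was shifted by 0.13.

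Most of these F1 calls were close to the threshold. RAC2 was lost with scaling to the 75th percentile (0.15, adjusted p = 0.378), with slide as a block (0.30, adjusted p = 0.0638) and without any 1 of 8 F1 pigs, HS replicates 1, 2, 3, 5 and 6 or TN replicates 2, 4 and 6 (0.22 to 0.33, adjusted p 0.0539 to 0.150). RAC1 was lost without any 1 of 6 F1 pigs, HS replicates 2, 4, 5 and 6 or TN replicates 2 and 4 (0.28 to 0.38, adjusted p 0.0530 to 0.129). NCF4 was lost without F1 TN replicate 1 (0.38, adjusted p = 0.0536) and the opposite-strand CYBA probe without F1 HS replicate 6 (-0.46, adjusted p = 0.0678). CYBB A_72_P574634 was lost without F1 HS replicate 1 or 4 or F1 TN replicate 1 or 2 (0.34 to 0.40, adjusted p 0.0697 to 0.112). The count of named probes was 2 without F1 HS replicate 6, and 3 without F1 HS replicate 2 or 5 or F1 TN replicate 2 or 4. CYBA on its sense probe passed without each single pig (0.51 to 0.61). With the level of erythroid markers in the model, CYBA on its sense probe was the 1 named probe that passed, with RAC1 at 0.10 (adjusted p = 0.665), RAC2 at 0.12 (0.542), NCF4 at 0.39 (0.148) and the opposite-strand CYBA probe at -0.61 (0.0722). With the level of neutrophil markers, RAC1 (0.32, adjusted p = 0.0516) and RAC2 (0.29, 0.0625) did not pass.

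**Figure D3:**
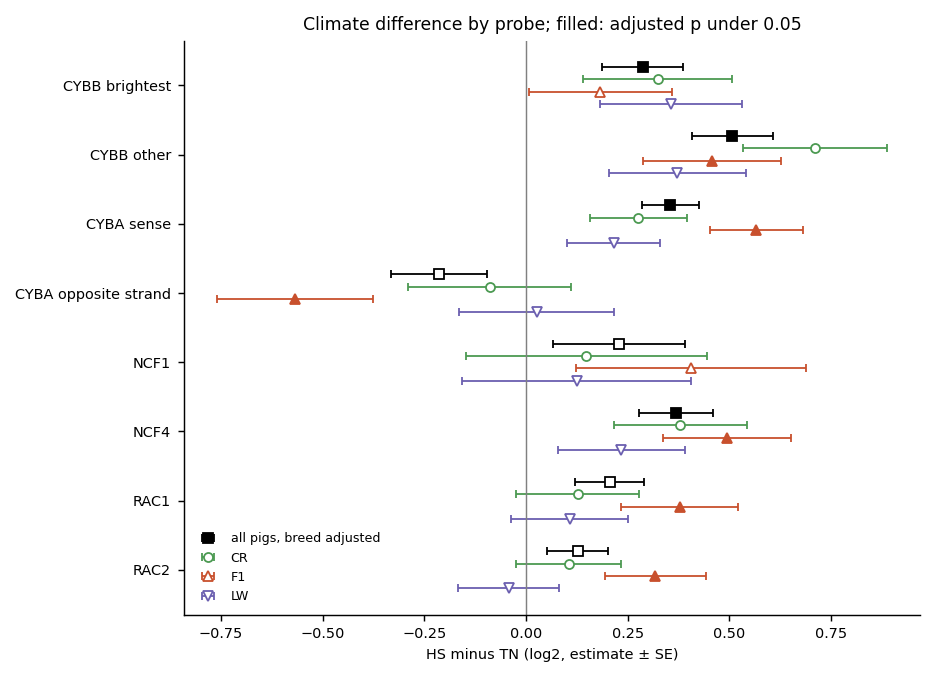
HS minus TN on the log2 scale (horizontal axis) for the 8 probes (vertical axis), over all pigs with breed in the model and within CR, F1 and LW pigs, with the SE as bars and filled symbols for an adjusted p under 0.05. The F1 estimate for CYBA is 0.57 on the sense probe and -0.57 on the opposite-strand probe, and no estimate within CR or LW pigs is filled.

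Within CR pigs and within LW pigs, 0 of the 8 probes passed, as did 0.0% of all probes in each breed by limma (3466 and 3404 probes at an unadjusted p under 0.05). In CR pigs the estimates were 0.28 ± 0.12 (SE) for CYBA, 0.38 ± 0.16 for NCF4 and 0.32 ± 0.18 and 0.71 ± 0.18 for CYBB. In LW pigs they were 0.22 ± 0.11 for CYBA, 0.23 ± 0.16 for NCF4 and 0.36 ± 0.17 and 0.37 ± 0.17 for CYBB. The estimates of RAC2 were 0.10 ± 0.13 in CR and -0.04 ± 0.12 in LW pigs, and those of the opposite-strand CYBA probe were -0.09 ± 0.20 and 0.03 ± 0.19. The interaction of breed and climate was not significant for any of the 8 probes (adjusted p of 0.384 to 0.889), as for 0.0% of all probes (5807 at an unadjusted p under 0.05), so the effect in F1 pigs was not shown to differ from that in the other breeds. Without the F1 pigs, the additive difference was 0.24 for CYBA (adjusted p = 0.216), 0.30 for NCF4 (0.208), and 0.34 (0.194) and 0.53 (0.162) for the CYBB probes. No probe of the table passed in that fit (6845 at an unadjusted p under 0.05).

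Between breeds, 0 of the 8 member probes passed in any contrast. The background was 1.08% of all probes for CR minus LW, 0.184% for F1 minus CR and 0.0256% for F1 minus LW, so 0 of 8 does not set the members apart. The largest of these differences in relation to its error was that of NCF4 between CR and LW pigs (0.31 ± 0.11, adjusted p = 0.237, 95% CI 0.08 to 0.54), and NCF4 passed with array weights (0.37, adjusted p = 0.0251). For CYBA the difference between CR and LW pigs was 0.12 ± 0.09 (95% CI -0.05 to 0.30). For RAC1 it was 0.03 ± 0.10 (-0.18 to 0.25) and for RAC2 -0.08 ± 0.09 (-0.26 to 0.11).

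The wider list of regulators and partners of the oxidase held 39 genes, of which 30 had a probe in the table, and was tested by gene. Under HS 11 rose, 3 fell and 16 did not pass, with a median difference of 0.16. Of the 8812 named genes 40.8% passed, 24.4% higher and 16.3% lower, with a median of 0.05. The genes with the smallest p-values that rose were CORO1A, which binds actin and the p40phox subunit (0.33 ± 0.08, SE, adjusted p = 0.0035), PIK3CG, a phosphoinositide 3-kinase of leukocytes (0.23 ± 0.06, adjusted p = 0.0047), and the inhibitors ARHGDIA (0.27 ± 0.07, adjusted p = 0.0059) and ARHGDIB (0.33 ± 0.10, adjusted p = 0.0076), which hold Rac in the cytosol. The 3 that fell were PLCG2, a phospholipase of immune receptors (-0.44 ± 0.12, adjusted p = 0.0063), MAPK3, a kinase able to phosphorylate p47phox (-0.23 ± 0.08, adjusted p = 0.0258), and VAV3, a Rac exchange factor (-0.17 ± 0.06, adjusted p = 0.0359). CYBC1, the chaperone of gp91phox, had no probe of that name in the table. Without the F1 pigs 0 genes of the list passed, and with the level of erythroid markers in the model 1 did, against 0.0% and 8.25% of all named genes.

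**Figure D4:**
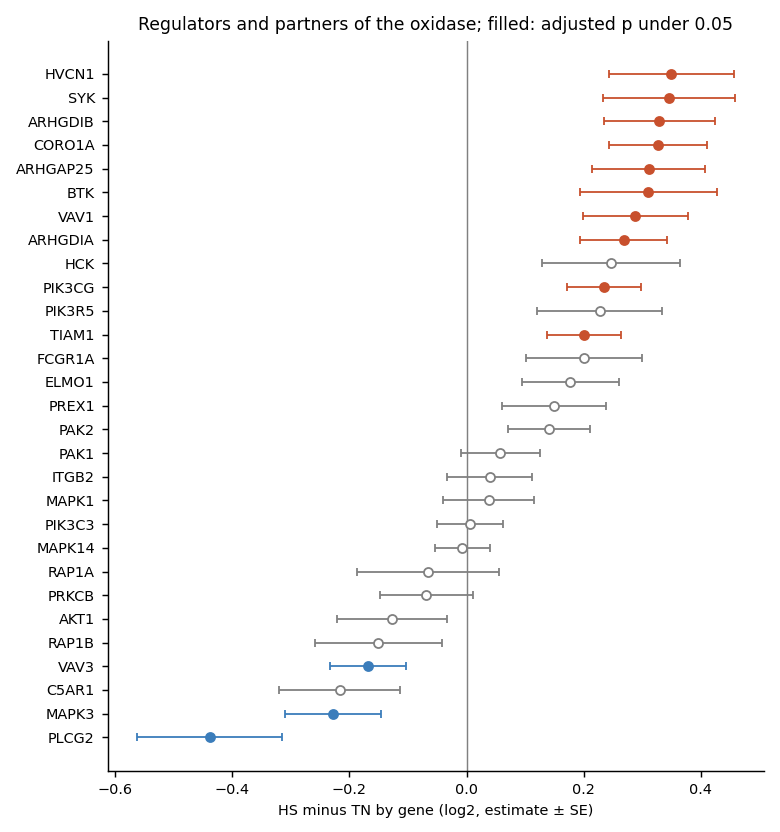
HS minus TN by gene on the log2 scale (horizontal axis) for 29 regulators and partners of the oxidase (vertical axis), with the SE as bars and filled symbols for an adjusted p under 0.05. The 10 genes drawn that rose lie between 0.20 and 0.35, and PLCG2 is the lowest at -0.44.

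Of the other NADPH oxidases, 2 of 8 were in the table. DUOX2 fell (-0.30 ± 0.10, SE, adjusted p = 0.0214) and DUOX1 did not pass (-0.18 ± 0.10, adjusted p = 0.126). In the same fit 40.8% of all named genes passed, 16.3% of them all lower, so this call does not set the other oxidases apart.

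Markers of blood cells were examined by gene in the same comparison, in which 40.8% of all named genes passed. Their part in the oxidase results was not tested apart from the covariate fits given here. Of 14 neutrophil markers 11 were in the table, 0 rose and 1 fell (ELANE), and the median difference was -0.28. CXCR2 was at -0.07 ± 0.17 (SE, adjusted p = 0.773) and S100A8 at -0.79 ± 0.58 (adjusted p = 0.276). The summed intensity of the list ranged from 26249 to 95493 over TN pigs and from 21974 to 88888 over HS pigs. Under HS its median was lower in each breed, from 44237 to 37968 in CR, 44322 to 32928 in F1 and 42577 to 31700 in LW pigs. These sums were not tested. Of 9 monocyte markers 8 were in the table and 2 rose, CSF1R (0.51 ± 0.10) and VCAN, with CD14 at -0.02 ± 0.17 (adjusted p = 0.946). CD68 (-0.10), LYZ (-0.08) and FCN1 (-0.04) were also negative and CD163 (0.27) and FCGR1A (0.20) positive, and none of these passed. The summed intensity was 1749 to 4558 in TN and 2033 to 5765 in HS pigs. Its median was lower under HS in each breed, from 3628 to 3177 in CR, 2809 to 2614 in F1 and 2843 to 2367 in LW pigs.

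Among the erythroid markers, 11 of 14 were in the table, 0 rose and 4 fell, with a median difference of -0.46, ALAS2 at -0.74 ± 0.19 (SE, adjusted p = 0.0033) and AHSP at -0.06 ± 0.14 (adjusted p = 0.729). Their summed intensity was 291717 to 568666 in TN and 247303 to 529397 in HS pigs. From TN to HS its median went from 513338 to 348922 in F1 and from 455771 to 440873 in LW pigs. In CR pigs it rose from 366072 to 392620. With the erythroid level in the model, 4.14% of all probes passed. CYBA stayed past the threshold (0.27, adjusted p = 0.0426), as did both CYBB probes (0.39, adjusted p = 0.0445, and 0.58, adjusted p = 0.0335), and NCF4 did not (0.30, adjusted p = 0.0620). With the neutrophil level in the model, CYBA, NCF4 and both CYBB probes passed.

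B cell markers rose in 2 of 5 genes in the table (CD79A at 0.31 did not pass) and T cell markers in 3 of 6 (CD3D 0.28 passed and CD3E 0.08 did not). KLRK1 fell among 6 NK and cytotoxic cell markers, with NCR1 at -0.02 and PRF1 at 0.09. Of the 5 platelet markers 0 passed (PPBP 0.44, GP9 0.01), and CCR3, the 1 eosinophil marker in the table, fell by 0.46 on the log2 scale. Markers of each of these cell types were measured in these blood samples.

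Correlations between the 6 member genes over pigs were computed on gene values with the 6 group means removed, so that they describe variation between pigs of a group. The 5 pairs with CYBA use its mean over both strands. Over the 15 pairs Pearson's r ranged from -0.33 to 0.50, with a median of 0.22, and 0 pairs passed an adjusted p of 0.05 (permutation within groups, 100000 resamples, two-sided), with 3 at an unadjusted p under 0.05. NCF4 had r = 0.50 with NCF1 (Spearman's coefficient 0.47, n = 35 pigs, permutation p = 0.00734 and 0.00986, adjusted p = 0.0550 and 0.148) and r = 0.50 with CYBB (Spearman's coefficient 0.41, permutation p = 0.00604 and 0.0260, adjusted p = 0.0550 and 0.195). Without the 2 pigs farthest from the median of NCF1 the first was 0.46, and without the 2 farthest from the median of CYBB the second was 0.36. Within slides 1 to 4 they were 0.26 to 0.84 and 0.45 to 0.68. RAC2 and NCF4, on the same chromosome, had r = 0.00048 (Spearman's coefficient 0.02, permutation p = 0.998 and 0.915, adjusted p = 0.998 and 0.915), and the lowest r was that between RAC2 and CYBB (-0.33, Spearman's coefficient -0.32, permutation p = 0.0972 and 0.0826, adjusted p = 0.365 and 0.353). With scaling to the 75th percentile 5 pairs passed, and with slide means removed 2 did. Of the 15 pairs, 1 passed without CR TN replicate 2 or 4, CR HS replicate 2 or LW TN replicate 1, and 2 pairs passed without LW TN replicate 5.

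Over all 35 pigs, up to 3 named genes most like each member among 8806 others were listed by Pearson's r, as a description without a test, since group differences and array effects are shared by all genes. NCF4 was closest to CTSH (0.86), SLA-DMB (0.86) and NAAA (0.84). CTSH and NAAA encode lysosomal enzymes, and SLA-DMB is a class II antigen-loading gene. NCF1 was closest to SLC26A6 (0.87), LIMK2 (0.84) and TMEM154 (0.84), and CYBB to SLC11A1 (0.78), the phagosomal metal transporter, FGD4 (0.77) and CAPN3 (0.74). RAC1 was closest to RGS19 (0.78) and ST6GALNAC6 (0.78), and RAC2 to PEX5 (0.85), CUL1 (0.80) and PIAS3 (0.79). CYBA, with its mean over both strands, was closest to RAB35 (0.68), FOLR2 (0.62) and PSMB11 (0.62). The median r with all genes was between 0.02 for NCF1 and 0.11 for RAC2.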

How the data were processed

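Whole blood RNA of 35 pigs was hybridized to custom porcine Agilent arrays with probes of 60 bases. The authors deposited raw scanner intensity files made with Agilent Feature Extraction 10.10.1.1. They also deposited a table of log2 values, for which they quantile-normalized the median intensity and kept probes that they counted as expressed. Its values had a Pearson correlation of 0.99997 with values recomputed here from the median intensity, and column medians of 7.13 to 7.14. Per the study's methods, the probe annotation was updated against Sscrofa11.1.

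Each probe was fitted with limma 3.58.1 in R 4.3.3 on the authors' log2 values. Additive effects came from breed and climate over all pigs, and effects within breeds and the interaction from the 6 group means. Benjamini-Hochberg adjustment ran over 39072 probes, or over 8812 genes as means of their probes, with a threshold of 0.05. The exact permutation tests within breeds used scipy 1.17.1 and all 462 or 924 arrangements. Other permutation tests used 100000 resamples, and fewer for the correlations with single pigs left out. The study also used pen, slaughter day, sire and dam as random effects, which the labels do not hold. Replicate numbers follow the order of the samples and pair no animals. The number of arrays limits the precision. Values by pig are given for the brightest probe of a gene. Of pathway genes past the threshold, the 4 with the smallest p in each direction were named, plus CYBC1, and for likeness the 3 genes with the highest r. For each cell type the first 2 markers in the table were named. The test on the CYBA probe pair was added, and the second probes of CYBA and CYBB described in full, after their values were seen. Some genes and lists covered by these rules are not reported here. The members and all lists were chosen with earlier results of these data known. The fits were tested on simulated data with independent noise for each probe and array. That simulation held no pen, litter, slaughter day or slide effects, so it cannot show how these affect the p-values. Alternatives were recomputed quantile normalization, normexp background correction with an offset of 50, scaling to the 75th percentile, other filters, slide as a block, array weights, erythroid or neutrophil covariates, and leaving out F1 pigs or each pig.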

Additional observations from a re-analysis of the deposited data

Results flagged for a closer look

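In 4 of 48 groups (8 probes in 6 groups), 1 pig stood apart from the others of its group by Dixon's criterion, which chance meets in about 1 in 20 groups. RAC1 was 9.99 (log2) in F1 TN replicate 4, against 10.47 to 10.76 in the other pigs of the group. NCF1 was 11.56 in LW TN replicate 6, against 9.75 to 10.39. CYBB A_72_P147021 was 13.14 in LW TN replicate 1, against 12.35 to 12.63. RAC2 was 16.08 in CR TN replicate 1, against 15.29 to 15.41.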

How the results depend on the processing

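No paired analysis was possible because the replicate numbers follow the order of the samples and pair no animals. Named member probes past the threshold for HS minus TN were 2 as reported and 3 with scaling to the 75th percentile, slide as a block or array weights. They were 1 with the erythroid covariate and 0 without F1 pigs, and ranged from 2 to 3 when single pigs were left out. Within F1 pigs the count was 5, 3 with the neutrophil covariate, 1 with the erythroid covariate, and 2 to 5 when single pigs were left out. NCF1 in F1 pigs turned to -0.0023 (adjusted p = 0.997) with the erythroid covariate. The CR minus LW count was 0, and 1 with array weights. The counts within CR, within LW, for the interaction and for the remaining breed contrasts were 0 under all alternatives. Over the whole array, array weights gave 1111 calls within LW pigs in place of 0. Pathway genes past the threshold were 14, 12 to 16 when single pigs were left out, 1 with the erythroid covariate and 0 without F1 pigs. Pairs of correlated members were 0, 5 with scaling to the 75th percentile, 2 with slide as a block, and 0 to 2 when single pigs were left out. The cause of these changes was not tested. Of the differences for single probes, 666 kept direction and side of the threshold, 33 lost the call, 12 gained it and 1 turned.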
